A study of Homo sapiens with 8 samples.

Results

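The genes described here encode the replicative helicase and the proteins that work with it at the fork: 38 genes, taken as a named list, of the 19970 protein-coding genes annotated on chromosomes 1 to 22 and X. Each was examined over its RefSeq span (assembly GRCh38.p14, which has the coordinates of hg38) with 5 kb on each side. The cells were U2OS, an established line from a human osteosarcoma, and accessible DNA was mapped by ATAC-seq, where a transposase inserts sequencing adapters into open chromatin. The 4 conditions combined an siRNA with a treatment: siOrc6 or the control siRNA siGl3, each with 5 mM H2O2 for 30 min or without it. All cells had siRNA for 72 h, were arrested at the start of S phase with thymidine and were released for 3 h before any H2O2, so the siGl3 cells differed from the siOrc6 cells by the siRNA alone as far as the labels state. Orc6 is a subunit of ORC, the complex that recognizes replication origins, and H2O2 is an oxidant that damages DNA.

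Replication forks start from the hexameric MCM2-7 ring, which is loaded on DNA at origins in an inactive form and becomes a working helicase when CDC45 and the GINS complex bind it. DNA polymerase alpha-primase then lays down primers, the clamp loader RFC places the PCNA ring around primed DNA, and polymerases epsilon and delta extend the leading and lagging strands. FEN1, DNA2 and LIG1 trim and join Okazaki fragments, RPA coats the exposed single strand, and CLSPN, TIMELESS, TIPIN and WDHD1 hold the fork together. Many of these genes are textbook targets of E2F factors, which drive transcription at entry into S phase.

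The start windows of the members are shown first because the gene-start peaks described below are defined by them. A start window is the RefSeq stretch from 250 bases before to 50 bases after a transcription start, and 31 of the 38 members had at least 1. In these windows E2F-type letters were searched on both strands, as TTTCCCGC, TTTCGCGC, TTTGCCGC or TTTGGCGC. Overlapping matches on opposite strands were both kept. They occurred in 16 of 31 members (51.6%), against 5.41% of the 15811 protein-coding genes with a window. The 16 members held 23 matches, which began between 187 bases before and 7 bases after the start. Of these, 20 began before it, where 250 of the 300 bases of each window lie. One stretch of 30 bases is printed for each role that had a match, and 2 for the helicase ring (RefSeq GRCh38.p14, strand of the gene, match in capitals).
MCM2 (chr3:127598402-127598431, plus strand): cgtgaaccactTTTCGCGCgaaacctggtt
MCM7 (chr7:100101388-100101417, minus strand): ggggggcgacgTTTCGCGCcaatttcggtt
GINS1 (chr20:25407667-25407696, plus strand): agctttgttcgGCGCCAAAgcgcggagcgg
PCNA (chr20:5126663-5126692, minus strand): cagcgtcagggGCGGGAAAaggcgtgcgtt
POLA1 (chrX:24693770-24693799, plus strand): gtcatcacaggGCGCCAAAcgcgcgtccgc
POLE (chr12:132687342-132687371, minus strand): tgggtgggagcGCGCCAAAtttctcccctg
LIG1 (chr19:48170440-48170469, minus strand): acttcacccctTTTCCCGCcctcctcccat
CLSPN (chr1:35769965-35769994, minus strand): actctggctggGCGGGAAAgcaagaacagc
In MCM2, MCM7 and LIG1 the letters read as searched, and in the other 5 they are the reverse complement. MCM6 held 4 matches, and MCM2, MCM3, MCM7 and TIPIN held 2 each. The other members with a match were GINS2, GINS3, RFC3, POLA2 and POLE2. The letters were absent from the windows of MCM10, CDC45, RFC1, RFC2, RFC4, RFC5, PRIM1, PRIM2, POLD1, POLD2, POLD4, FEN1, TIMELESS, WDHD1 and RPA1. RPA2, RPA3, GINS4, MCM4, DNA2, POLD3 and MCM5 had no window.

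Other promoter letters differed less between the members and all genes. CCAAT, on either strand, was in the windows of 19 of 31 members (61.3%) and of 42.1% of all genes. The GC box GGGCGG, on either strand, was in 25 of 31 (80.6%) and 64.3%. The median G+C content was 65.8% over the 40 member windows and 62.3% over all 22131 windows. A match is a description of letters and not a binding site, and no factor was measured.

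**Figure D1:**
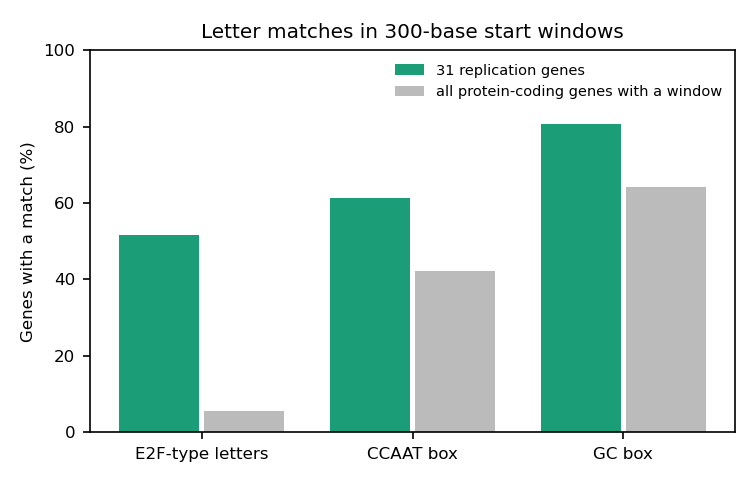
Share of genes (%, vertical axis from 0) whose 300-base start windows hold E2F-type letters, CCAAT or GGGCGG on either strand, for 31 replication genes (green) and the 15811 protein-coding genes with a window (grey). The gap is widest for the E2F-type letters, at 51.6% of members and 5.41% of all genes.

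The measurements are 1 peak list per condition, each drawn from 2 libraries, and 4 lists of changed regions, called by the authors as higher or lower in siOrc6 relative to siGl3 cells, with and without H2O2. On chromosomes 1 to 22 and X the lists held 97816 peaks in siOrc6 cells and 103674 in siGl3 cells with H2O2, and 109304 in siOrc6 and 115292 in siGl3 cells without it. No count or value per library was used, so depth is unknown, the spread between replicates cannot be given, and no difference below was tested. Each peak carries the authors' signal value, used here only as a percentile within its own list: a peak at percentile 90 has a signal above that of 90% of the peaks listed for that condition. Signal followed peak width (Spearman correlation across the peaks of a list 0.842 to 0.882), so a percentile ranks breadth as well as height. In such bulk preparations, fewer cells with an open site and a site open to a lesser degree in each cell cannot be told apart. Fixed markers were looked at for the line: 8 of 10 mesenchymal and bone genes, RUNX2, SP7 and COL1A1 among them, had a gene-start peak in all 4 lists, while ALPL and TWIST1 had none. The share over all protein-coding genes was 63.5%. Of 11 markers of blood, epithelium, neurons and liver, 5 had one in all 4 lists (CD3E, EPCAM, SYT1, RBFOX3 and SNAP25), PTPRC, HBB, CDH1, KRT5 and ALB had none, and CD79A had one with H2O2 alone. Ranks overlapped between these sets. COL1A1 was at 99.5 to 99.7 and SP7 at 90.2 to 94.1, but RUNX2 at 43.3 to 66.8 and COL1A2 at 12.8 to 34.0. Of the other markers, SNAP25 was at 98.6 to 99.0 and EPCAM at 53.6 to 65.3, so the markers did not set the lineage apart.

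The starts of the fork genes were open in every condition. The gene-start peak of a gene is the peak of highest signal that overlaps a start window by at least 1 bp or, for the 7 members without a window, lies within 1 kb of either annotated end. All 38 members had one in all 4 lists, against 63.5% of protein-coding genes. Its median percentile over the members was 92.8 in siOrc6 and 92.0 in siGl3 cells with H2O2, and 92.8 in siOrc6 and 92.9 in siGl3 cells without it. Over all protein-coding genes with such a peak the medians were 90.2 in siOrc6 and 90.0 in siGl3 cells with H2O2, and 90.0 and 89.0 in siOrc6 and siGl3 cells without it. Every member lay above percentile 60 in each list, where 85.9% of genes with a gene-start peak in all 4 lists also lay. Above percentile 80 in each list were 35 members (68.2% of those genes), and above percentile 90 were 20 (44.4%). The start regions of MCM2, MCM7, PCNA, POLE, FEN1, TIPIN, WDHD1 and RPA1 also hold the start of another protein-coding gene. A peak there need not belong to the fork gene alone. Members with E2F-type letters had a median of 91.5 and those without had 94.8 in untreated siOrc6 cells. In untreated siGl3 cells these medians were 89.2 and 93.7, so members with the letters did not have higher percentiles. At PCNA and TIPIN the peak ranked lay at a start region other than the one with the letters.

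**Figure D2:**
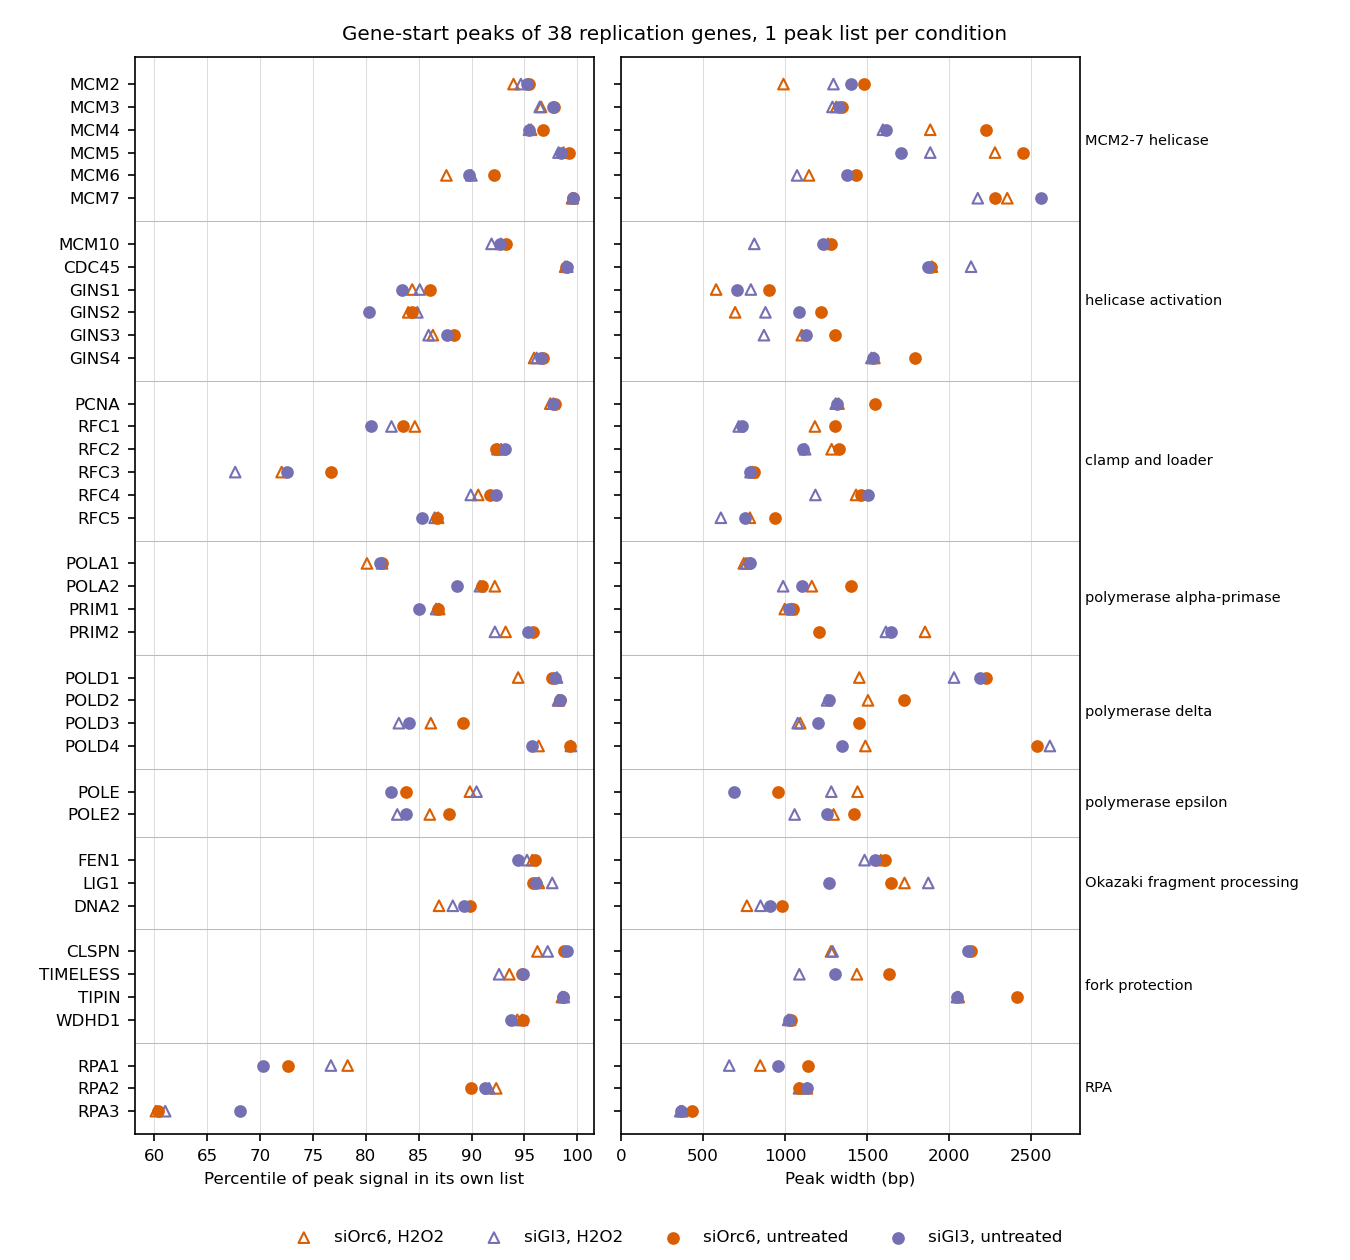
Gene-start peaks of the 38 members by role, with signal percentile in its own list (left) and peak width in bp (right). Each point is 1 peak list (triangles with H2O2, circles untreated, orange siOrc6, purple siGl3). The points of MCM7 lie above percentile 99 in all 4 lists, and those of RPA3 between 60.1 and 68.1.

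Of the 3 groups of 6 genes, the helicase ring had the highest-ranked starts. The median percentile of MCM2 to MCM7 was 96.1 in siOrc6 and 95.9 in siGl3 cells with H2O2, and 97.3 in siOrc6 and 96.6 in siGl3 cells without it. Smaller groups reached higher medians in some lists. The 4 genes of polymerase delta had 95.37 in siOrc6 and 98.13 in siGl3 cells with H2O2. Without H2O2 they had 97.97 in siOrc6 and 96.82 in siGl3 cells, so only siOrc6 cells with H2O2 had them below the ring. CLSPN, TIMELESS, TIPIN and WDHD1 had a median above the ring in both siGl3 lists and below it in both siOrc6 lists. In the ring, MCM7 stood first of all 38 members, at 99.5 in siOrc6 and 99.6 in siGl3 cells with H2O2, and 99.6 in both siOrc6 and siGl3 cells without it. It was also the only member above percentile 99 in each list, where 4.89% of genes with a gene-start peak in all 4 lists lay. Its start peak spanned 2356 bp in siOrc6 and 2176 bp in siGl3 cells with H2O2, and 2284 bp in siOrc6 and 2560 bp in siGl3 cells without it. That region also holds the start of AP4M1. MCM5 had one of the 3 broadest start peaks, at 2281 bp in siOrc6 and 1886 bp in siGl3 cells with H2O2, and 2450 bp in siOrc6 and 1710 bp in siGl3 cells without it. MCM6 was the lowest of the ring, at percentiles 87.6 in siOrc6 and 90.0 in siGl3 cells with H2O2, and 92.1 in siOrc6 and 89.8 in siGl3 cells without it. MCM2, MCM3 and MCM4 stayed between 94.0 and 97.8 in the 4 lists.

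Among the activators of the helicase, CDC45 was far above the GINS genes 1 to 3. CDC45, which joins the ring to form the active helicase, was at percentile 98.8 in siOrc6 and 99.0 in siGl3 cells with H2O2, and 98.9 in siOrc6 and 99.0 in siGl3 cells without it. GINS1 was at 84.4 in siOrc6 and 85.1 in siGl3 cells with H2O2, and 86.1 in siOrc6 and 83.4 in siGl3 cells without it. GINS2 was at 84.0 in siOrc6 and 84.9 in siGl3 cells with H2O2, and 84.4 in siOrc6 and 80.3 in siGl3 cells without it. GINS3 lay between 85.9 and 88.4 and GINS4 between 95.9 and 96.7, although the 4 subunits form 1 complex. MCM10, which helps to activate the helicase, lay between 91.9 and 93.3.

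The clamp and its loader covered a wide range. PCNA, the sliding clamp, lay between 97.4 and 97.9 in the 4 lists. RFC3, a small loader subunit, was at 72.0 in siOrc6 and 67.6 in siGl3 cells with H2O2, and 76.7 in siOrc6 and 72.5 in siGl3 cells without it, among the 3 lowest members. RFC1, the large subunit, lay between 80.4 and 84.6, and RFC2, RFC4 and RFC5 lay between 85.3 and 93.2.

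Starts of polymerase delta mostly ranked above those of polymerases alpha and epsilon. The catalytic gene POLD1, with POLD2 and POLD4, stayed at or above 94.4 in the 4 lists, while POLD3 lay between 83.1 and 89.2. In polymerase alpha-primase, the catalytic gene POLA1 lay between 80.1 and 81.5, POLA2 between 88.6 and 92.2, and the primase gene PRIM1 between 85.0 and 86.9. The other primase gene, PRIM2, lay between 92.2 and 95.8, but the peak of highest signal was not the same one in every list. Of its 2 start regions, chr6:57313436-57314641 led in untreated siOrc6 cells and chr6:57316172-57318050 in untreated siGl3 cells. A further peak at the annotated low-coordinate end of PRIM2 (chr6:57221246-57222962), outside both start windows, was at 96.7 in siOrc6 and 96.6 in siGl3 cells with H2O2, and 97.3 in siOrc6 and 96.8 in siGl3 cells without it. RefSeq also lists a PRIM2 pseudogene of 264192 bp, PRIM2BP, and the handling of reads that match several places was not stated. POLE2, a subunit of polymerase epsilon, was at 86.0 in siOrc6 and 83.0 in siGl3 cells with H2O2, and 87.9 in siOrc6 and 83.8 in siGl3 cells without it.

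Fork-protection and Okazaki genes were mostly high, and 2 of the 3 RPA genes were low. TIPIN, the partner of TIMELESS, was at 98.5 in siOrc6 and 98.7 in siGl3 cells with H2O2, and 98.7 in siOrc6 and 98.6 in siGl3 cells without it. The start regions of TIPIN also hold the start of MAP2K1. Its other start region (chr15:66356146-66357278) was at 94.4 in siOrc6 and 93.0 in siGl3 cells with H2O2. Without H2O2 that region was at 95.5 in siOrc6 and 94.6 in siGl3 cells. CLSPN, which the checkpoint kinase ATR needs to activate CHK1, lay between 96.2 and 99.0, and TIMELESS and WDHD1 between 92.6 and 94.9. The flap nuclease gene FEN1 and the ligase gene LIG1 lay between 94.4 and 97.6, and the nuclease-helicase gene DNA2 between 86.9 and 89.8. RPA1, the large subunit of the single-strand binding complex, was at 78.3 in siOrc6 and 76.7 in siGl3 cells with H2O2, and 72.7 in siOrc6 and 70.2 in siGl3 cells without it. RPA2 lay between 90.0 and 92.3. RPA3, the small subunit, was lowest of all members, at 60.1 in siOrc6 and 61.0 in siGl3 cells with H2O2, and 60.3 in siOrc6 and 68.1 in siGl3 cells without it. RPA3 had no start window, and its value is that of a peak near 1 annotated end. A stronger peak lay inside the gene (chr7:7639954-7641722), at 99.1 in siOrc6 and 98.8 in siGl3 cells with H2O2, and 99.2 in siOrc6 and 99.3 in siGl3 cells without it.

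In untreated cells, regions called higher in siOrc6 by the authors lay within the spans of 4 of 38 members (10.5%): GINS1, POLD3, FEN1 and CLSPN. The share over all protein-coding genes was 17.5%, although the members' spans were longer (median 38.9 kb against 24.2 kb). Regions called lower lay in 2 members (5.26%), MCM7 and PRIM2, against 11.8% of genes. With H2O2 no member had a region called in either direction, where 2.38% of genes had a higher one and 3.47% a lower one. Counted at gene starts alone, 3 members had a higher region (7.89%), GINS1, POLD3 and FEN1, against 6.09% of genes, and none had a lower one, against 0.426%. These shares are near or below those of all genes. With H2O2 no member had a higher region (0.16% of genes) or a lower one (0.0951%) at its start.

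The 3 regions called higher at starts covered peaks that were listed in all 4 conditions. At GINS1 the region was 900 bp (chr20:25407117-25408016), and its peak measured 899 bp in untreated siOrc6 cells and 709 bp in untreated siGl3 cells. With H2O2 it measured 579 bp in siOrc6 and 791 bp in siGl3 cells. At POLD3, an accessory subunit of polymerase delta, the region was 1450 bp (chr11:74592047-74593496). The POLD3 peak was at percentile 89.2 in untreated siOrc6 cells and 84.1 in untreated siGl3 cells, the largest positive difference of the 38 members, and at 86.1 in siOrc6 and 83.1 in siGl3 cells with H2O2. At FEN1 the region was 1681 bp (chr11:61791919-61793599) and also overlapped TMEM258 and MIR611. The FEN1 peak was at 96.0 in untreated siOrc6 cells and 94.4 in untreated siGl3 cells, and at 95.7 in siOrc6 and 95.2 in siGl3 cells with H2O2. Its width was 1608 bp and 1550 bp in untreated siOrc6 and siGl3 cells. The median width of all regions in that list was 648 bp.

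The 250 bases before the starts of GINS1 and FEN1 are printed because these regions called higher in siOrc6 cover them (RefSeq GRCh38.p14, strand of the gene, capitals marking CCAAT or its reverse complement).
GINS1 (chr20:25407423-25407672, plus strand): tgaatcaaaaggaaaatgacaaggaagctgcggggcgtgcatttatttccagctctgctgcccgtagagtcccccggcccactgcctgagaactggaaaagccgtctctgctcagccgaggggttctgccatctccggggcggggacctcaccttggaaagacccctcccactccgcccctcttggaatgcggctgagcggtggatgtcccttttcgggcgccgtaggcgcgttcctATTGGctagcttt
FEN1 (chr11:61792661-61792910, plus strand): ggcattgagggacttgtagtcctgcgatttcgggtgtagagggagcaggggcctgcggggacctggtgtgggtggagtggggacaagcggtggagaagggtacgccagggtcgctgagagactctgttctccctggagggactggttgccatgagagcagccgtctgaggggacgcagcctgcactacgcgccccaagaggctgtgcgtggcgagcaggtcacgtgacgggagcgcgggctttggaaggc
The GINS1 stretch holds 1 reverse CCAAT, which begins 13 bases before the start, and its E2F-type letters lie just after the start in the stretch printed above. It also lies within the RefSeq gene LOC105372581. The FEN1 stretch holds neither set of letters. Its G+C content is 65.2%, and that of GINS1 is 60.0%.

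The region near CLSPN lay beyond the gene, 807 bp from its low-coordinate end, which is the 3′ side of this minus-strand gene. It spanned 1683 bp (chr1:35717724-35719406), overlapped C1orf216, and was centred 51413 bp from the CLSPN start. Its peak was at 97.0 in untreated siOrc6 cells and 95.7 in untreated siGl3 cells, and at 97.1 in siOrc6 and 96.6 in siGl3 cells with H2O2. The start of CLSPN itself was at 98.7 in untreated siOrc6 cells and 99.0 in untreated siGl3 cells. Of regions called higher just outside 5 kb, the nearest lay 5036 bp from MCM7, 6458 bp from MCM2 and 8740 bp from RPA1.

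The region called lower in MCM7 lay in the 3′ part of the gene, over the miRNA cluster that MCM7 hosts. It spanned 1502 bp (chr7:100092804-100094305), against a median of 436 bp in that list, and its centre was 6974 bp from the nearest annotated MCM7 start. No siOrc6 peak lay in it with or without H2O2. In siGl3 cells it held 1 peak of 342 bp with H2O2, at percentile 35.6. Without H2O2, siGl3 cells had 2 peaks there, of 716 bp at percentile 44.0 and 316 bp at percentile 6.89. These are weak peaks beside the MCM7 start, which was at or above 99.5 in every list. MIR106B (chr7:100093993-100094074) lay in the smaller peak of untreated siGl3 cells. MIR25 (chr7:100093560-100093643) and MIR93 (chr7:100093768-100093847) lay in the 469 bp between its 2 peaks. One mature form of each is printed because the region covers their genes (RefSeq GRCh38.p14, seed at bases 2 to 8 in capitals).
hsa-miR-106b-5p: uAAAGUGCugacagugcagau
hsa-miR-93-5p: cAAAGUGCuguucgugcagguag
hsa-miR-25-3p: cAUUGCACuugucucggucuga
The first 2 share the seed AAAGUGC and differ from hsa-miR-25-3p, whose seed is AUUGCAC. No RNA was measured here.

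**Figure D3:**
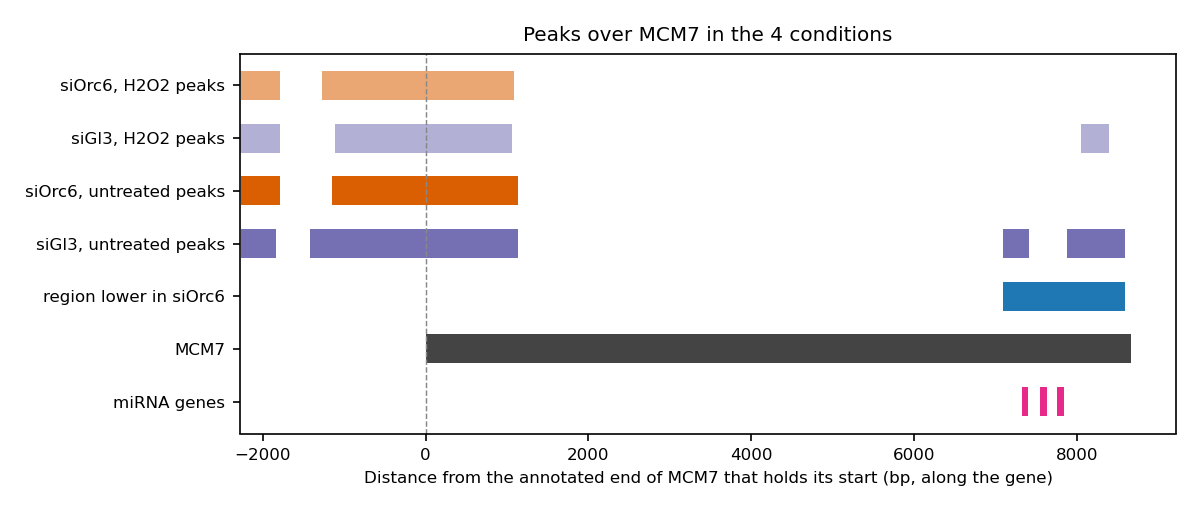
Peaks over MCM7 in the 4 conditions, drawn along the gene as distance in bp from the annotated end that holds its start, with the region called lower in untreated siOrc6 cells, the gene span and 3 miRNA genes. All 4 conditions have a peak at the start, and the region called lower has peaks in the siGl3 lists alone.

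The lower region in PRIM2 was small and weak. It spanned 269 bp (chr6:57242603-57242871), inside the gene and 72068 bp before the nearest start window. Its peak was at percentile 7.06 in siGl3 cells with H2O2 and 0.72 in siGl3 cells without it, and neither siOrc6 list had a peak there.

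A further 43 replication genes outside the 38, covering origin recognition, licensing, firing, histone supply and RNase H2, served as a second list. A higher region in untreated siOrc6 cells lay at 7 of them (16.3%), all at the gene start: TONSL, CHTF18, CDT1, ATAD5, UHRF1, RNASEH2A and CHAF1B. Over all protein-coding genes the share was 17.5% within the span and 6.09% at the start. The gene-start peak of CHTF18, part of an alternative clamp loader, was at 84.5 in untreated siOrc6 cells and 64.0 in untreated siGl3 cells. That of CHAF1B, a subunit of the chromatin assembly factor, was at 75.5 in untreated siOrc6 cells and 55.2 in untreated siGl3 cells. These were the largest gaps of the 7. RNASEH2A was at 79.1 in untreated siOrc6 and 71.7 in untreated siGl3 cells, and CDT1 at 84.5 in untreated siOrc6 and 75.2 in untreated siGl3 cells. ATAD5 was at 79.7 in untreated siOrc6 and 79.2 in untreated siGl3 cells, and TONSL at 99.5 in untreated siOrc6 and 99.0 in untreated siGl3 cells. UHRF1, an epigenetic regulator that recruits DNMT1, went the other way, at 45.9 in untreated siOrc6 and 49.3 in untreated siGl3 cells. A lower region lay at 3 (6.98%, against 11.8% of genes), TOPBP1, MCM8 and TOP1, and none had a region called with H2O2. All but RAD17 had a gene-start peak in all 4 lists, and the median percentile was 90.3 in untreated siOrc6 cells and 88.5 in untreated siGl3 cells.

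Start peaks of the members were broader in siOrc6 than in siGl3 cells without H2O2, as were those of most genes. The median width was 1411.5 bp in untreated siOrc6 cells and 1263 bp in untreated siGl3 cells, and 33 members were wider in siOrc6 (86.8%, against 75.9% of genes). The median log2 ratio of widths was 0.19 over the members and 0.07 over all genes. POLD4 had the largest ratio, at 2536 bp in untreated siOrc6 cells and 1346 bp in untreated siGl3 cells, and the siGl3 list divides the region into several peaks. The bases covered there were 2536 in untreated siOrc6 cells and 2412 in untreated siGl3 cells. RFC1 was 1302 bp in untreated siOrc6 cells and 739 bp in untreated siGl3 cells, in 1 peak each. In percentile, 28 members were higher in siOrc6 (73.7%, against 63.3% of genes), with a median difference of 0.55 points over the members and 0.46 over all genes. That median was 1.15 over the members and 1.03 over all genes by −log10 p-value, and 1.43 over the members and 2.32 over all genes by signal per base of width. The next largest positive differences were those of RFC3 and POLE2, at 4.18 and 4.11 points. RPA3, RPA2 and RFC2 were lower in siOrc6 by the most, with differences of -7.72, -1.32 and -0.85 points.

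With H2O2 the members' start peaks were again mostly wider in siOrc6 than in siGl3 cells, while their percentiles were divided. The median difference in percentile was 0.10 points, with 20 members higher and 18 lower in siOrc6 cells, and it was -0.01 over all genes, of which 49.5% were higher. The sign of the members' median depended on the ranking. It was -0.16 by −log10 p-value, with 16 members higher and 22 lower, against 0.149 over all genes. By signal per base of width it was 1.41, with 23 higher and 15 lower, against 0.991 over all genes. The median width was 1282 bp in siOrc6 and 1104.5 bp in siGl3 cells with H2O2, and 27 members were wider in siOrc6 (71.1%, against 74.3% of genes). RFC3, POLE2 and POLD3 again had the largest positive differences, at 4.39, 3.07 and 3.02 points. POLD1 was at 94.4 in siOrc6 and 98.1 in siGl3 cells with H2O2, and POLD4 at 96.3 in siOrc6 and 99.4 in siGl3 cells. Both POLD4 and POLD1 had their region divided in the siOrc6 list: the POLD1 start peak was 1453 bp in siOrc6 and 2031 bp in siGl3 cells, with 1957 and 2031 bases covered in siOrc6 and siGl3 cells. Under both treatments, 23 members were wider in siOrc6 (60.5%, against 58.7% of genes), and POLA1 alone was narrower in both (2.63%, against 7.48%).

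H2O2 went with narrower start peaks at most members. They were narrower with H2O2 than without it under both siRNAs at 26 of 38 members (68.4%), against 37.3% of the 12688 genes with a gene-start peak in all 4 lists. Only CDC45, POLE and LIG1 were wider with H2O2 under both siRNAs (7.89%, against 25.6% of genes). In siOrc6 cells, 32 members were narrower with H2O2 (84.2%, against 56.2% of genes), with a median log2 ratio of -0.19 over the members and -0.02 over all genes. In siGl3 cells, 29 were narrower (76.3%, against 54.5%), with a median log2 ratio of -0.04 over the members and -0.01 over all genes. Genes whose start peaks were in the upper 50% of both lists were narrower in 58.0% of cases in siOrc6 and 56.4% in siGl3 cells. Among the other 43 replication genes, 21 of 42 with a peak were narrower with H2O2 in siOrc6 cells and 24 in siGl3 cells. The comparisons with and without H2O2 use the same 4 lists as those between siRNAs.

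**Figure D4:**
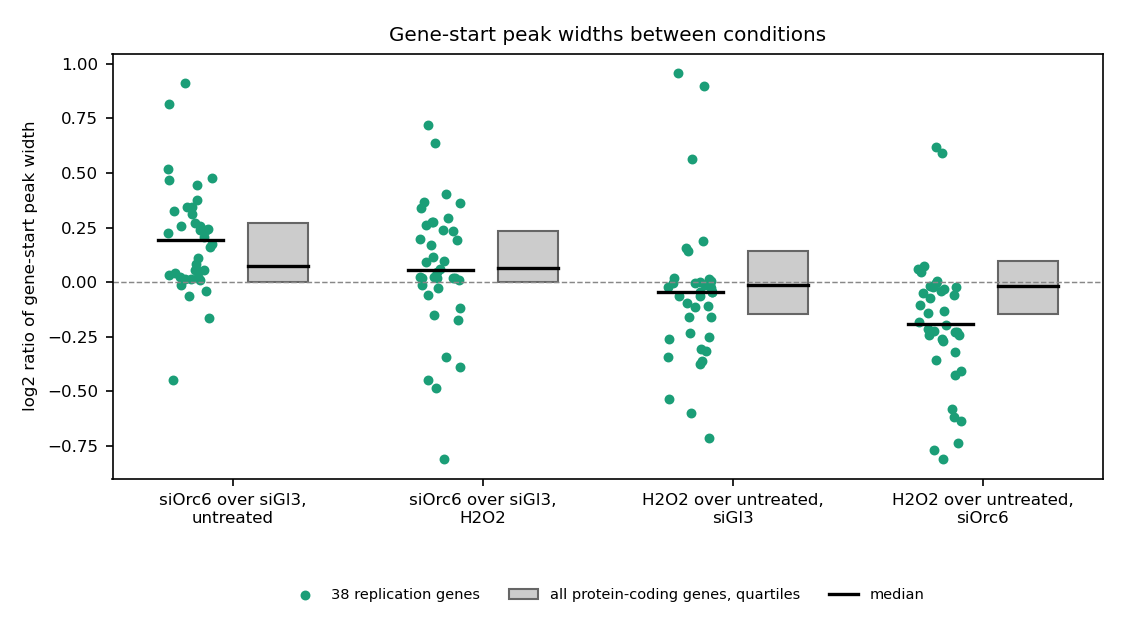
Log2 ratio of gene-start peak width for 4 comparisons, with 1 green point per member and grey boxes for the quartiles of all protein-coding genes. Black lines are medians. For H2O2 over untreated siOrc6 cells the members' median is -0.19, and that of all genes is -0.02.

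Single members differed in how their width changed. GINS2 had the lowest ratio in siOrc6 cells, at 695 bp with H2O2 and 1217 bp without it, and in siGl3 cells it was 880 bp with H2O2 and 1087 bp without it. MCM2 was 990 bp with H2O2 and 1482 bp without it in siOrc6 cells, and 1295 bp with H2O2 and 1401 bp without it in siGl3 cells. CLSPN was 1280 bp with H2O2 and 2136 bp without it in siOrc6 cells, and 1290 bp with H2O2 and 2114 bp without it in siGl3 cells. At CLSPN the H2O2 lists divided the region: the bases covered were 2009 with H2O2 and 2136 without it in siOrc6 cells, and 1991 with H2O2 and 2114 without it in siGl3 cells. POLE went the other way, with 1442 bp with H2O2 and 956 bp without it in siOrc6 cells, and 1282 bp with H2O2 and 687 bp without it in siGl3 cells. The untreated siOrc6 list divided the POLE region, where 1442 bases were covered with H2O2 and 1748 without it. The POLE start region also holds the start of PXMP2.

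Ranks with H2O2 followed widths only in part. In siOrc6 cells 29 members were at a lower percentile with H2O2 than without it (76.3%, against 45.8% of genes), with a median difference of -0.50 points over the members and 0.11 over all genes. In siGl3 cells 18 were lower and 20 higher (52.6% higher, against 61.5%), with a median of 0.01 points over the members and 0.52 over all genes. By −log10 p-value that median was 1.18 over the members and 1.23 over all genes, with 28 members higher and 10 lower, and by signal per base of width it was 1.55 over the members and 2.03 over all genes, with 26 higher and 12 lower. The siOrc6 median changed sign with the ranking used. It was 0.038 over the members and 0.384 over all genes by the authors' −log10 p-value. By signal per base of width it was 1.40 over the members and 0.712 over all genes, so the members were no longer below all genes. POLE had the largest positive difference with H2O2 under both siRNAs, at 6.05 points in siOrc6 and 8.05 in siGl3 cells, and RPA1 followed, at 5.63 in siOrc6 and 6.45 in siGl3 cells. Next was RPA2 in siOrc6 cells, at 92.3 with H2O2 and 90.0 without it, and GINS2 in siGl3 cells, at 84.9 with H2O2 and 80.3 without it. RFC3 was lower with H2O2 under both siRNAs, with differences of -4.69 points in siOrc6 and -4.90 in siGl3 cells. MCM6 and POLD1 in siOrc6 cells had differences of -4.48 and -3.21 points. RPA3 and PRIM2 in siGl3 cells had differences of -7.05 and -3.13.

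Beyond their starts the fork genes held further sites, most of them narrower than the start peaks. Peaks of the 4 lists that overlapped or touched were merged, which gave 143 merged peaks in the 38 spans, none of them shared between members. Of these, 95 (66.4%) were listed in all 4 conditions, against 63.6% of the 75878 in spans of all protein-coding genes. All 41 merged peaks at a member's start were listed in all 4 conditions, with a median width of 1432 bp. Of the 102 elsewhere, 54 (52.9%) were, and their median width was 420 bp. The 48 merged peaks not listed in every condition had a median percentile of 13.8 and none was above 44.0, so most lay near the lower end of their lists. This split by place was not computed over all protein-coding genes, so it is not given as a trait of the members. Some sites away from the start ranked above the start peak, as given above for RPA3 and PRIM2. At POLD3 a site in the flank was at 94.2 in siOrc6 and 96.6 in siGl3 cells with H2O2, and 96.0 in siOrc6 and 97.6 in siGl3 cells without it, above its start peak in each list.

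**Figure D5:**
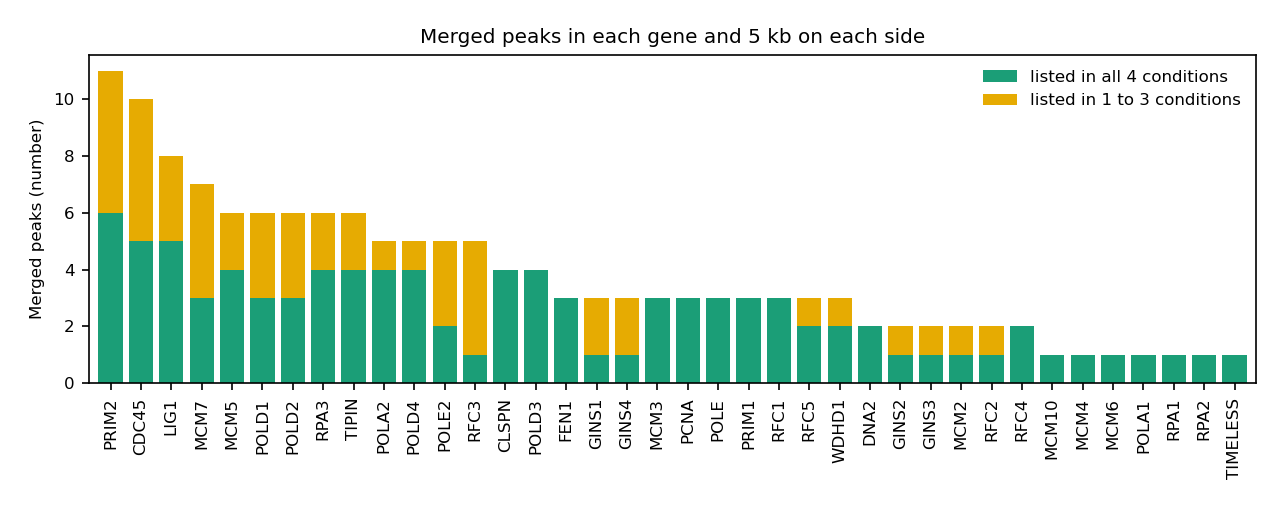
Number of merged peaks in each member's gene and 5 kb on each side (vertical axis from 0), divided into those listed in all 4 conditions (green) and those listed in 1 to 3 (yellow). PRIM2 has 11, and 7 members have only the peak at their start.

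The number of merged peaks per member had a median of 3, as over all protein-coding genes, those without any included. PRIM2 had 11, CDC45 10, LIG1 8 and MCM7 7, while MCM4, MCM6, MCM10, POLA1, TIMELESS, RPA1 and RPA2 had 1 each. POLA1 had 1 although its gene spans 303069 bp. In 17 members, those with 1 merged peak among them, every merged peak was listed in all 4 conditions. The same share over all protein-coding genes was not computed, so the count is not a trait of the members.

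Few sites followed an siRNA or a treatment. One merged peak, beyond the 3′ end of GINS1 (chr20:25453083-25453359), was listed in both siOrc6 lists and in neither siGl3 list, at percentile 19.3 with H2O2 and 22.2 without it. It makes up 0.699% of the members' merged peaks, against 1.53% of all merged peaks. In GINS4, MCM7, PRIM2 and RFC5, 1 merged peak each was listed in both siGl3 lists alone (2.80%, against 3.62%). Those of MCM7 and PRIM2 lie in the regions called lower. The GINS4 site was at 15.5 with H2O2 and 18.3 without it, and the RFC5 site (chr12:118045610-118045995) at 10.5 with H2O2 and 1.29 without it, in siGl3 cells. CDC45, GINS2, LIG1 and PRIM2 had 1 each in both H2O2 lists alone (2.80%, against 1.45%). The GINS2 site (chr16:85687312-85687516) was at 18.7 in siOrc6 and 21.9 in siGl3 cells with H2O2, and the PRIM2 site (chr6:57307402-57307698) at 3.67 in siOrc6 and 29.4 in siGl3 cells with H2O2. GINS3 and POLD2 had 1 each in both untreated lists alone (1.40%, against 4.86%). A further 26 were in 1 list. With H2O2, 1 was in siOrc6 cells (0.699%, against 1.37%) and 5 in siGl3 cells (3.497%, against 3.06%). Without H2O2, 8 were in siOrc6 cells (5.59%, against 5.30%) and 12 in siGl3 cells (8.39%, against 6.04%).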

How the data were processed

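The 8 ATAC-seq libraries formed 4 conditions of 2 libraries, titled rep1 and rep2 in the labels. They are also recorded as batches 1 and 2, with 1 library of each condition in each. The labels do not say whether the libraries came from separate cultures. Both libraries of a condition were pooled in 1 deposited peak list, as its name shows, so no spread, p-value or test across libraries could be given. Build hg38 was used, and Genrich, edgeR, Bowtie2, deepTools, SAMtools, Picard and bcl2fastq 2.20 were run, per the submitters' processing notes. Their roles and parameters, any shift of read positions for the transposase, and the handling of duplicates and of multiply matching reads are not given in the sources used here. Column 7 of the deposited lists holds the authors' peak signal, a score per peak whose lowest value was just above 200.0, and column 8 is the authors' −log10 p-value. Both served only to rank peaks within a list. The authors' lists of changed regions give positions without a fold or p-value, with no threshold stated.

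Only chromosomes 1 to 22 and X were analysed, and each list lost 147 to 168 peaks by this. Regions were compared by an overlap of at least 1 bp with gene spans and start windows from RefSeq tables (GRCh38.p14). All 38 members were found, and 31 had a start window. Percentiles, widths and merged peaks were computed for every protein-coding gene by the same rule, and the overlap and merging steps were checked on simulated intervals and against bedtools 2.31.1. Members, gene lists and comparisons were chosen with earlier results of these data known, so the shares of all genes are given beside them as a description. Values in every list were given for members with a changed region, the 3 highest and lowest by mean percentile, the 3 largest differences each way per comparison, the 3 widest start peaks, and members with a merged peak under 1 siRNA or 1 treatment alone (as counts beyond 5). CLSPN widths, covered bases, marker percentiles and the other start-region values of RPA3, PRIM2 and TIPIN lie outside this rule and were picked with their values in view. Alternatives were other flanks, overlaps, start windows, merging distances, stricter peaks and other rankings. Software was Python 3.11.15, pandas 2.3.3, numpy 2.4.6, matplotlib 3.10.9 and scipy 1.17.1.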

Additional observations from a re-analysis of the deposited data

Results flagged for a closer look

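At 2 members the gene-start peak percentile differed between siRNAs by more than 1 point in each treatment and in opposite directions. Other members, GINS1 and GINS2 among them, also had opposite signs, with a difference under 1 point in at least 1 treatment. At MCM6, siOrc6 was 2.36 points below siGl3 with H2O2 (difference -2.36) and 2.33 above it without H2O2, so the 2 differences were 4.70 points apart. The directions at MCM6 were the same by −log10 p-value and by signal per base of width. At POLD4 the difference was -3.06 points with H2O2 and 3.60 without it, which are 6.65 points apart. At POLD4 the lists with the lower percentiles, siOrc6 with H2O2 and siGl3 without it, had the region divided into several peaks, with 2532 and 2412 bases covered in these lists, against 2616 in siGl3 cells with H2O2 and 2536 in siOrc6 cells without it. By the authors' −log10 p-value the POLD4 percentile was higher in siOrc6 in both treatments, at 97.9 in siOrc6 and 97.7 in siGl3 cells with H2O2, and 97.7 in siOrc6 and 96.6 in siGl3 cells without it. By signal per base of width it was also higher in siOrc6 in both treatments, at 96.2 in siOrc6 and 90.8 in siGl3 cells with H2O2, and 94.99 in siOrc6 and 94.1 in siGl3 cells without it. With 1 list per condition, no difference was tested.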

How the results depend on the processing

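Of 46 alternatives run over 15 results, 29 left the value close to that reported, 14 moved it and 3 turned its sign. No paired analysis was possible because each condition's peak list pools its 2 libraries, and leaving out a replicate could not be run for the same reason. The 3 reversals were in median percentile differences. Ranking by −log10 p gave -0.16 points for siOrc6 minus siGl3 with H2O2 (0.10 as reported) and 0.038 for H2O2 minus untreated in siOrc6 cells (-0.50 as reported), and signal per base of width gave 1.40 for the second of these. Ranking by −log10 p also moved siOrc6 minus siGl3 without H2O2 to 1.15 and H2O2 minus untreated in siGl3 cells to 1.18. Signal per base gave 1.43 for siOrc6 minus siGl3 without H2O2, 1.41 for it with H2O2 and 1.55 for H2O2 minus untreated in siGl3 cells. Ranking among regions listed in all 4 conditions, chosen after seeing the data, gave 1.13 for siOrc6 minus siGl3 without H2O2, 0.43 with H2O2, 0.45 for H2O2 minus untreated in siGl3 cells and -0.061 in siOrc6 cells. The cause was not tested.

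All bases covered by peaks within 1 kb of the start were also used in place of peak width. The median log2 ratio was then -0.11 for H2O2 over untreated in siOrc6 cells, with 33 members narrower, against -0.011 over all genes. For siOrc6 over siGl3 with H2O2 it was 0.031, against 0.057 over all genes. A flank of 10 kb raised the members with a region higher in untreated siOrc6 cells to 7, by MCM2, MCM7 and RPA1, against 20.2% of genes. Peaks in the upper 50% of each list left 78 merged peaks, of which 87.2% were listed in all 4 conditions. In spans of all protein-coding genes that share was 68.7%. Using the first listed start window alone, also chosen after seeing the data, left 37 of 38 members with a start peak in all 4 lists, PRIM2 being the exception. Pooled lists without counts leave every difference without an error, and a peak absent from a list may lie just under the authors' threshold.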
